A study of Mus musculus with 2 samples.

Results

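The genes described here are 28 genes of cholesterol and fatty acid synthesis, chosen by symbol from the 32285 genes that were counted in GL261 cells. They are 18 enzymes of sterol synthesis, 4 genes that regulate these pathways or carry sterols, and 6 enzymes of fatty acid synthesis. They are not every gene of these pathways, and sums over a group of steps cover the listed enzymes only, while the other enzymes were not analysed here. All 28 symbols were found once in the count tables, and all 28 genes had at least 50 unique molecular identifiers (UMIs, tags that mark single captured transcripts) over both cultures.

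GL261 is a mouse glioma cell line of the C57BL/6 strain, which the labels give as an astrocytoma. Adherent cells were grown in DMEM with 10% FBS and penicillin-streptomycin. Neurospheres, which are free-floating aggregates, were grown for 12 days in the same culture medium with 20 ng/ml of EGF, 20 ng/ml of FGF and B-27 supplement at 1:50. The labels do not say that the serum was taken out, so the neurosphere medium is described here as the serum medium with additions. Adherent cells were detached with trypsin, whereas neurospheres were spun down, treated with trypsin as the labels give it, and broken up by pipetting through ever finer tips. Both samples were frozen in culture medium with DMSO before they were sequenced by scRNA-Seq (10x Genomics, 3′ v3 chemistry). The comparison asks how expression of these genes differed between the culture forms of the same line, of which the neurosphere form was studied as a model of tumor formation.

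Each culture was 1 library. No test between the cultures could be made and no p-value is given, and culture form, medium additions, dissociation, library and depth cannot be told apart. Cells of a library are not replicates, and all intervals are exact 95% intervals that cover counting error only. After mitochondrial and ribosomal genes and shallow cells were left out, 5051 of 5764 adherent and 4276 of 4951 neurosphere cells remained, with 46290996 and 64943938 UMIs. The median cell held 8260 UMIs in adherent and 13198.5 UMIs in neurosphere culture. Levels are given as CPM, the UMIs of a gene per 1000000 UMIs of all genes left, and differences as the log2 ratio of CPM, neurosphere over adherent. Where values stand in pairs, the adherent value comes first. UMIs from the 3′ protocol are not divided by gene length, so levels are compared between cultures and not between genes. The libraries shared 12 barcodes, which belonged to 10 adherent and 11 neurosphere cells that were kept.

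Cholesterol is made from acetyl-CoA by a long chain of enzymes. The mevalonate steps build isoprenoid units, squalene is made from them and closed to lanosterol, and lanosterol is trimmed to cholesterol. The chain is controlled by SREBP transcription factors, which are held in the endoplasmic reticulum by SCAP and INSIG proteins while sterols are plentiful and are released to the nucleus when sterols run low. SREBP-2 (Srebf2) acts mainly on sterol genes, and SREBP-1c, a product of Srebf1, mainly on fatty acid genes. Cells of the brain make most of their own cholesterol, since lipoproteins of the blood do not cross the blood-brain barrier, and oligodendrocytes use much of it for myelin.

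The 28 genes together made up 1857 CPM in the adherent library against 5078 CPM in the neurosphere library, a log2 ratio of 1.45 (1.44 to 1.46). By size, 19 of them had over 2-fold higher CPM in the neurosphere library, 1 had over 2-fold lower CPM and 8 lay within 2-fold. Among all 14654 genes with at least 50 UMIs, 21.7% passed the same limit upward and 11.7% downward. The median log2 ratio was 1.71 over the 28 genes and 0.32 over all genes, with quartiles of -0.32 and 0.90 over all genes. The genes with the highest ratios were Nsdhl, Hmgcs1, Insig1 and Idi1, all over 8-fold higher, and Scd1 was the gene with over 2-fold lower CPM. The difference lay mainly in the sterol enzymes, which went from 1140 to 3944 CPM (3.46-fold), while the fatty acid enzymes were at 587 and 692 CPM (1.18-fold).

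The scaling sets the zero of these ratios. In the median kept cell, mitochondrial genes took 2.02% of UMIs in adherent and 3.97% in neurosphere culture, and ribosomal genes 29.6% and 16.1%. TMM scaling moved the log2 ratio of every gene by -0.22, and a total that includes the mitochondrial and ribosomal genes moved it by 0.22. Over all genes, 3181 were over 2-fold higher and 1711 lower as given here, 2354 and 2128 under TMM scaling, and 4325 and 1375 with that larger total. Of the 28 genes, 17 were over 2-fold higher under TMM scaling, where Fdps (0.95) and Acly (0.88) no longer passed the limit.

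**Figure D1:**
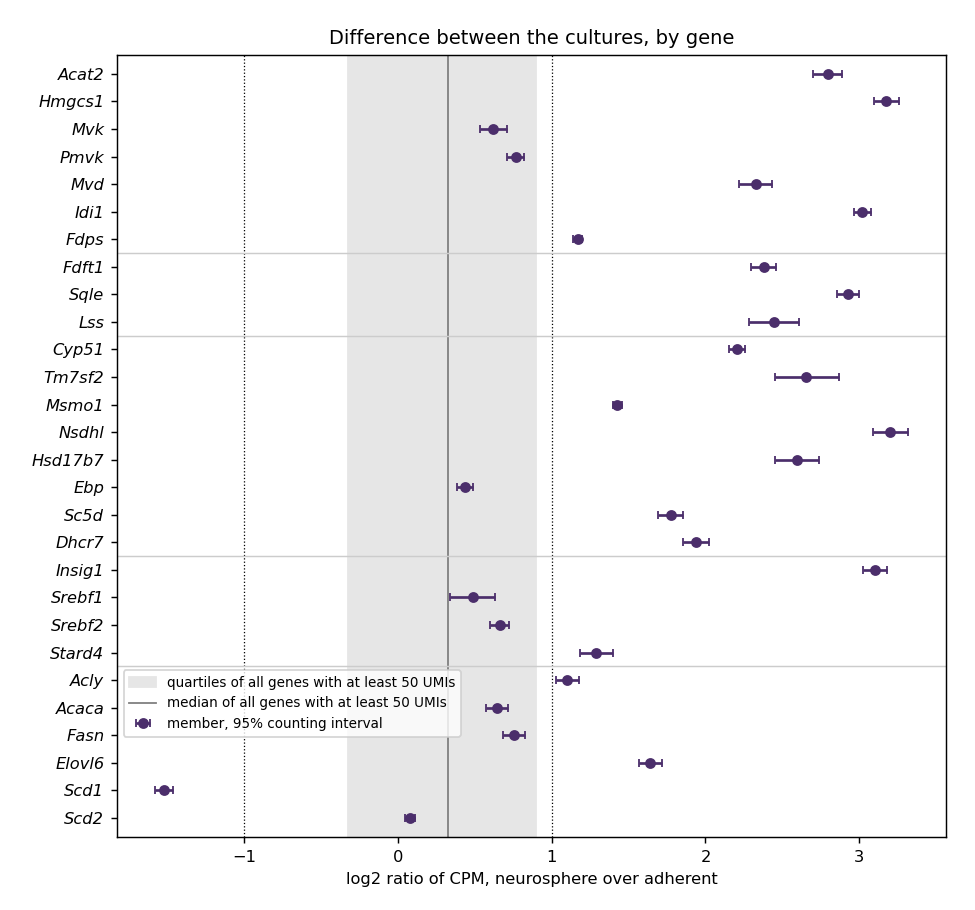
Log2 ratio of CPM (x axis, neurosphere over adherent) for each of the 28 genes (y axis), with bars for the 95% counting interval, dotted lines at 2-fold, and the median and quartiles of all 14654 genes as a grey line and band. Most sterol genes sit to the right of the band, Mvk, Pmvk, Ebp, Srebf1, Srebf2, Acaca, Fasn and Scd2 lie inside it, and Scd1 lies to its left at -1.52.

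The promoters of the 4 genes with the highest ratios, and that of Fasn as a fatty acid enzyme with a ratio inside the band, are printed since these genes share known regulators. Each window runs from 250 bases before to 50 bases after the RefSeq start of the gene (GRCm38.p6), 5′ to 3′ on the gene's own strand. The window of Hmgcs1 is chr13:119690101-119690400 (plus strand), that of Idi1 chr13:8885356-8885655 (plus strand) and that of Nsdhl chrX:72918271-72918570 (plus strand). The window of Insig1 is chr5:28071162-28071461 (plus strand) and that of Fasn chr11:120824498-120824797 (minus strand). Capitals mark matches on either strand to TCACNCCAC, a form of the sterol regulatory element, and to CCAAT, the NF-Y box, which reads ATTGG on the other strand.
Hmgcs1: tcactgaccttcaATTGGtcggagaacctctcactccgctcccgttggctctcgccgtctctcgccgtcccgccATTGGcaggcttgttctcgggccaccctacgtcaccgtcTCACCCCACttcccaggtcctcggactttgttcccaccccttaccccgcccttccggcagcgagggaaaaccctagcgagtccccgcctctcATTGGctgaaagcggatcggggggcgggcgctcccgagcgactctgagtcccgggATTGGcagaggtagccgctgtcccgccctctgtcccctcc
Idi1: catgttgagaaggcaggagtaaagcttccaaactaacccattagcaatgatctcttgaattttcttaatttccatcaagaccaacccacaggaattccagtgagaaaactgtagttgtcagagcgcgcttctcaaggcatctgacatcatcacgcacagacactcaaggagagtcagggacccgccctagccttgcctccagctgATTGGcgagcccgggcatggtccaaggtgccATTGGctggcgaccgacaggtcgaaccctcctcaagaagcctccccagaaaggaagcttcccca
Nsdhl: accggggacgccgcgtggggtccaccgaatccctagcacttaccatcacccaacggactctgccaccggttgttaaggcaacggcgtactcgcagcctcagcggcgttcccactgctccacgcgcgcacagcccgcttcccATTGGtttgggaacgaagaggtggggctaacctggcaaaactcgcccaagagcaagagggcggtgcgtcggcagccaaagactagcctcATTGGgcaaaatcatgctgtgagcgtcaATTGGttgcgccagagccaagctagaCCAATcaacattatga
Insig1: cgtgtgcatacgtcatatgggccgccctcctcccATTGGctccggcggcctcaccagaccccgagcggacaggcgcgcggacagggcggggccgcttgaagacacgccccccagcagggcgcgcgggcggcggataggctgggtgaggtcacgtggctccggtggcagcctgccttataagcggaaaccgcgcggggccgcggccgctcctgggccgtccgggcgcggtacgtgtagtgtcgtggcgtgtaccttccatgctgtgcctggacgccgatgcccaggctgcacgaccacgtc
Fasn: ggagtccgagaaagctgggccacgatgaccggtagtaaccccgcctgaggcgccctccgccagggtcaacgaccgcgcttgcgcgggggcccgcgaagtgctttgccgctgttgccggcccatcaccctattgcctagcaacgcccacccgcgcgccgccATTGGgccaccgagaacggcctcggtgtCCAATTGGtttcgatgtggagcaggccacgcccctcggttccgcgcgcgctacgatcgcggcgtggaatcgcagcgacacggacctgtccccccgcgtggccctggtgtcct
In Hmgcs1, the sterol element match TCACCCCAC begins 137 bases before the start and overlaps none of the 4 CCAAT matches. In Fasn, the matches CCAAT and ATTGG overlap and are printed as 1 run of capitals.

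RefSeq windows were matched by symbol for 22 of the 28 genes, with 27 windows in all, and for 20267 genes of the table. Fdps, Fdft1, Sqle, Scd1, Scd2 and Stard4 had no entry. CCAAT stood in a window of 19 of the 22 genes (86.4%) against 41.7% of the 20267 genes. Of the 22 genes, Acat2, Acaca and Elovl6 held none. The Acaca window, chr11:84195188-84195487 (plus strand), lies inside the gene, which starts at 84129672 in the GENCODE annotation. It was counted as given, here and among the fatty acid enzymes, and says nothing of the promoter at that start. GGGCGG, the Sp1 box, stood in 18 of the 22 (81.8%) against 45.8%. TCACNCCAC was found in Hmgcs1 alone of the 22 (4.55%), against 1.48% of all genes, and CACGTG, the E-box, in 4 of the 22 (18.2%) against 8.82%. Other forms of the sterol regulatory element were not searched for. By group, CCAAT stood in 14 of 15 sterol enzymes and 2 of 4 fatty acid enzymes with a window. The 20267 genes were not limited to those with at least 50 UMIs, a limit that all 28 genes passed. The part of expression in these shares was not tested. These counts describe letters in a short window, on both strands, and say nothing of whether a factor binds there.

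Of the 7 mevalonate enzymes among the 28 genes, 5 had over 2-fold higher CPM with neurosphere culture. Acat2, the thiolase that joins acetyl-CoA units, was at 21.5 CPM in the adherent and 149 CPM in the neurosphere library, a log2 ratio of 2.79 (2.70 to 2.89). Hmgcs1, the cytosolic HMG-CoA synthase whose promoter carries the sterol element match, was at 28.3 and 255 CPM, a log2 ratio of 3.17 (3.09 to 3.26). Only 473 of the 14654 genes had a higher ratio than Hmgcs1. Mvd, the decarboxylase that makes isopentenyl diphosphate, was at 17.6 and 88.2 CPM, and Idi1, the isomerase of that unit, at 60.1 and 487 CPM. Their log2 ratios were 2.33 (2.22 to 2.43) and 3.02 (2.96 to 3.08). Fdps, which makes farnesyl diphosphate, was at 270.0 and 607 CPM and had the smallest ratio of the 5, with 1.17 (1.14 to 1.20).

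The 2 kinases between Hmgcs1 and Mvd stayed within 2-fold. Mevalonate kinase (Mvk) was at 32.0 and 49.2 CPM, with a log2 ratio of 0.62 (0.53 to 0.71). Phosphomevalonate kinase (Pmvk) was at 86.8 and 147 CPM, with a log2 ratio of 0.77 (0.71 to 0.82). The ratios of the 7 enzymes ran from 1.54-fold (Mvk) to 9.03-fold (Hmgcs1). These 7 enzymes together went from 516 to 1783 CPM.

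The 3 enzymes from farnesyl diphosphate to lanosterol all had over 5-fold higher CPM in neurosphere cells. Squalene synthase (Fdft1) was at 28.5 and 148 CPM. Squalene epoxidase (Sqle), often described as a rate-limiting step, was at 37.8 and 287 CPM, a 7.59-fold difference. Lanosterol synthase (Lss), which closes the sterol rings, was at 7.43 and 40.5 CPM. The log2 ratios were 2.38 (2.29 to 2.46) for Fdft1, 2.92 (2.85 to 3.0) for Sqle and 2.45 (2.28 to 2.61) for Lss. Their summed level went from 73.8 to 476 CPM (6.45-fold), the highest ratio of the groups of steps.

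Of the 8 listed enzymes from lanosterol to cholesterol, 7 were over 2-fold higher. Nsdhl, a sterol dehydrogenase that helps to remove methyl groups, had the highest log2 ratio of all 28 genes with 3.20 (3.09 to 3.32), from 14.2 to 131 CPM. Tm7sf2, a sterol reductase, was at 4.60 and 29.0 CPM, and Hsd17b7, a further reductase, at 9.51 and 57.3 CPM. Their log2 ratios were 2.65 (2.45 to 2.87) and 2.59 (2.45 to 2.74), with the widest intervals of the group, since adherent cells held 213 and 440 UMIs of them. Cyp51, the lanosterol demethylase, was at 74.8 and 345 CPM, and Msmo1, the methylsterol monooxygenase, at 288 and 775 CPM. Their log2 ratios were 2.21 (2.15 to 2.26) and 1.43 (1.40 to 1.45).

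The other 3 enzymes of this stretch had log2 ratios below 2. Sc5d, a sterol desaturase, was at 31.2 and 107 CPM (log2 ratio 1.77, 1.69 to 1.86). Dhcr7, the reductase that can complete cholesterol, was at 28.2 and 108 CPM (1.94, 1.85 to 2.03). Ebp, the sterol isomerase, was at 99.2 and 134 CPM and stayed within 2-fold (0.43, 0.38 to 0.49). Msmo1 was the gene of the 28 with the most UMIs, and the summed log2 ratio of the other 27 was 1.46.

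Some of these genes overlap others in the GENCODE annotation of GRCm38. Tm7sf2 shares 532 bases on its own strand with Vps51, which had 911 UMIs in adherent and 1320 in neurosphere cells. Fdft1 shares 774 bases with Ctsb and Cyp51 shares 166 bases with Akap9, both on the opposite strand. How much these overlaps touch the counts was not tested.

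Among the genes that regulate these pathways or carry sterols, Insig1 differed most. Insig1, which holds the SCAP-SREBP complex back and is itself a target of SREBP, was at 31.5 and 271 CPM, a log2 ratio of 3.10 (3.03 to 3.18). Stard4, a cytosolic sterol carrier, was at 18.7 and 45.8 CPM, a log2 ratio of 1.29 (1.18 to 1.40). The transcription factors themselves stayed within 2-fold. Srebf2 was at 67.2 and 106 CPM (0.66, 0.60 to 0.72), and Srebf1 was at 12.6 and 17.6 CPM (0.49, 0.34 to 0.63). UMIs count transcripts, so the amount of SREBP protein in the nucleus was not measured.

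The fatty acid enzymes did not move as a block. Acly, which makes cytosolic acetyl-CoA from citrate, was at 41.8 and 89.7 CPM, a log2 ratio of 1.10 (1.03 to 1.18). Acaca, which makes malonyl-CoA, was at 49.2 and 77.0 CPM, and Fasn, the fatty acid synthase that builds palmitate, at 49.8 and 84.0 CPM. Their log2 ratios were 0.65 (0.57 to 0.72) and 0.75 (0.68 to 0.83), both within 2-fold. Elovl6, which lengthens palmitate to stearate, was at 37.7 and 118 CPM and had the highest log2 ratio of the group, 1.64 (1.57 to 1.72).

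The stearoyl-CoA desaturases, which turn saturated into monounsaturated fatty acids, stood apart from the other 26 genes. Scd1 (chr19:44394455-44407879 in GRCm38, minus strand) was at 152 and 52.8 CPM, a log2 ratio of -1.52 (-1.58 to -1.46). That is 2.87-fold lower, and 13623 of the 14654 genes had a higher ratio. Scd2 (chr19:44293674-44306864, plus strand), a paralog that is prominent in brain, was at 257 and 271 CPM, a log2 ratio of 0.08 (0.05 to 0.11) that turned to -0.14 under TMM scaling and to -0.01 when every cell had the same weight. Of the UMIs on both desaturases, Scd1 took 37.2% (36.5 to 37.9) in adherent and 16.3% (15.8 to 16.8) in neurosphere cells. Reads of such close paralogs can be assigned to either gene or lost, and this was not tested. Without Scd1, the fatty acid enzymes were at 435 and 640 CPM (1.47-fold), and without both desaturases at 178 and 368 CPM (2.06-fold).

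**Figure D2:**
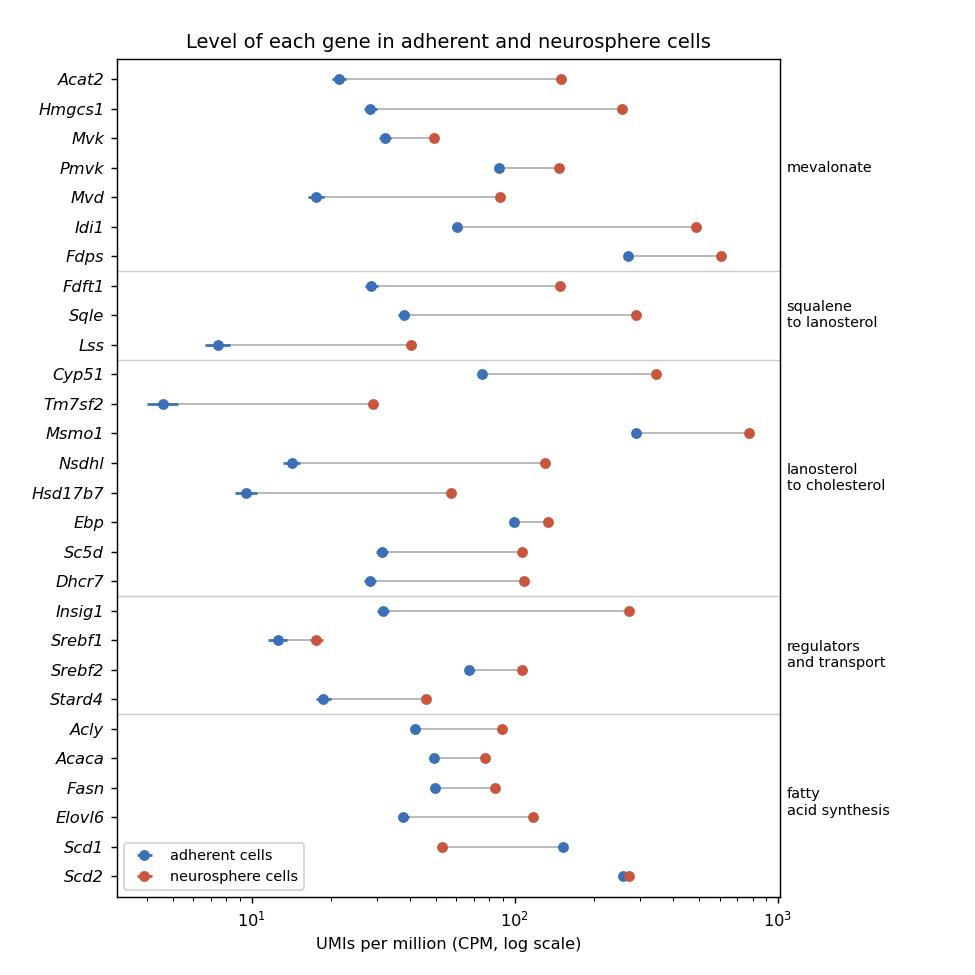
CPM of each of the 28 genes (x axis, log scale) in adherent cells (blue) and neurosphere cells (red), by step of the pathway (right), with bars for the 95% counting interval. For 27 genes the red point lies to the right of the blue one, and for Scd1 it lies to the left, at 52.8 against 152 CPM.

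The composition of the 28-gene sum also differed. Scd1 and Scd2 took 8.17% and 13.8% of the UMIs of the 28 genes in adherent cells, and 1.04% and 5.34% in neurosphere cells. Idi1 took 3.24% and 9.59%, and Hmgcs1 1.52% and 5.02%. Msmo1 kept a like share, with 15.5% and 15.3%, and so did Fdps, with 14.5% and 12.0%.

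The sterol difference was spread over the cells and not carried by a small group of them. Each cell was thinned to 5000 UMIs to put both libraries at 1 depth, which left out 587 adherent and 80 neurosphere cells that were shallower. UMIs of the 18 sterol enzymes had a median of 10 per 10000 UMIs in the 4464 adherent cells (quartiles 6 and 14) and of 36 in the 4196 neurosphere cells (quartiles 24 and 50). Of the neurosphere cells, 93.1% (92.3 to 93.9) lay above the adherent median, and 1.25% (0.949 to 1.63) of the adherent cells lay above the neurosphere median. Without thinning, the medians were 10.1 and 36.1 per 10000. The median thinned cell had UMIs of 4 of the 18 sterol enzymes in adherent and of 9 in neurosphere culture.

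Shares of cells with a UMI followed the levels. UMIs of Idi1 were found in 36.3% of the adherent and 91.3% of the neurosphere cells, and in 24.2% and 81.0% after thinning. Nsdhl was found in 11.9% and 71.8%, and in 6.90% and 43.0% after thinning. Insig1 was found in 21.3% and 85.0%, and in 13.5% and 64.3% after thinning. Free RNA could not be measured, as every cell comes from the same line and none is known to lack these transcripts.

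For the 6 fatty acid enzymes, the median was 6 UMIs per 10000 in both cultures after thinning (quartiles 2 and 8 in adherent, 4 and 10 in neurosphere cells). Thinned values move in coarse steps of 2 per 10000, and without thinning the medians were 5.32 and 6.22 (1.17-fold). After thinning, 41.6% of neurosphere cells lay above the adherent median and 33.5% of adherent cells above the neurosphere median. These shares were 60.7% and 40.5% without thinning, and 32.4% and 27.5% at 3000 UMIs. Scd1 was found in 48.5% (47.0 to 49.9) of thinned adherent and 21.0% (19.8 to 22.3) of thinned neurosphere cells. Scd2 was found in 67.0% and 66.8%.

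**Figure D3:**
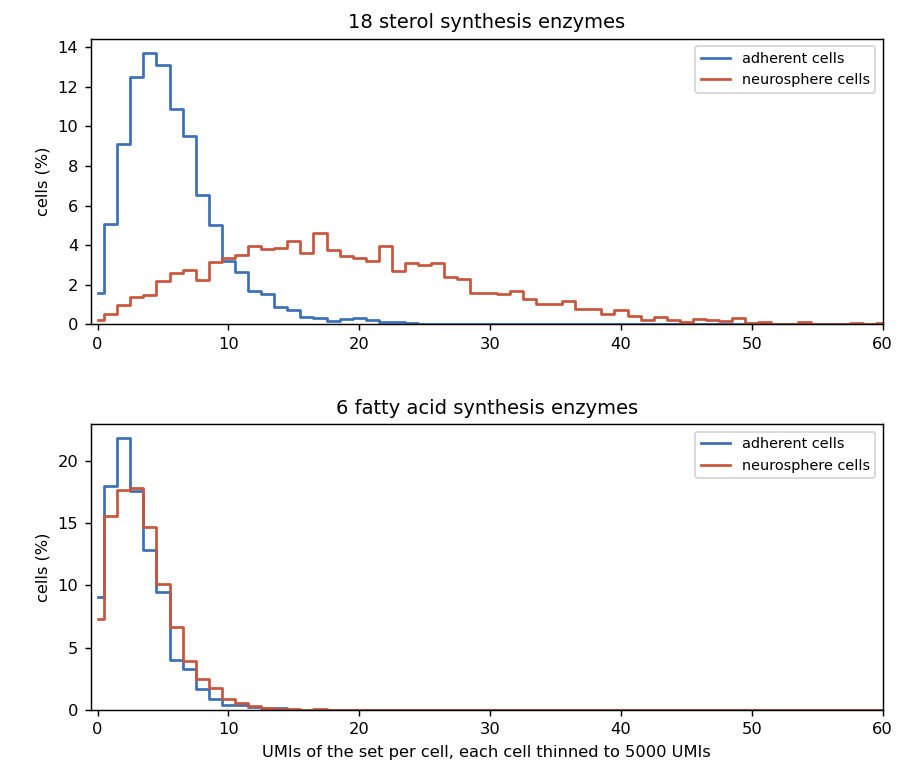
Share of cells (y axis, %) by UMIs of the 18 sterol enzymes (top) and of the 6 fatty acid enzymes (bottom) per cell (x axis), each cell thinned to 5000 UMIs, for 4464 adherent cells (blue) and 4196 neurosphere cells (red). The sterol curve of neurosphere cells is broad and shifted to the right, with 93.1% of cells above the adherent median, and the fatty acid curves overlap over most of their range, with 41.6% of neurosphere cells above the adherent median.

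The spread over cells within a culture differed between the genes. For counts that differ between cells by sampling alone, the variance over the mean is 1. Over thinned neurosphere cells it ran from 1.04 (Tm7sf2) to 2.47 (Msmo1) over the 18 sterol enzymes, with Hmgcs1 at 2.08 and Fdps at 2.03, and Ebp (1.07), Mvk (1.08), Lss (1.11) and Sc5d (1.12) near 1. Over thinned adherent cells it ran from 0.976 (Tm7sf2) to 1.78 (Msmo1). The genes at the ends of these ranges also differed in level, with a mean of 3.81 UMIs per thinned neurosphere cell for Msmo1 and 0.155 for Tm7sf2, and the part of level in the spread was not tested.

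The sterol enzymes also varied together from cell to cell more in the neurosphere library than in the adherent library. As a description over thinned cells, which share their library, the median Spearman rho over the 153 pairs of sterol enzymes was 0.02 in 4464 adherent cells and 0.11 in 4196 neurosphere cells. In neurosphere cells, 29 pairs were above 0.2, with the highest value, 0.40, for Idi1 and Fdps, and in adherent cells 0 pairs were. Sparse counts lower such values, and the sterol counts were sparser in adherent cells, so the difference in rho cannot be told apart from the difference in level. The sterol sum had a rho of 0.12 with Insig1 in adherent and of 0.33 in neurosphere cells, against 0.10 and 0.09 with Srebf2. With the fatty acid sum it had a rho of 0.15 in adherent and 0.37 in neurosphere cells. Scd1 with Scd2 had a rho of 0.13 and 0.12.

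**Figure D4:**
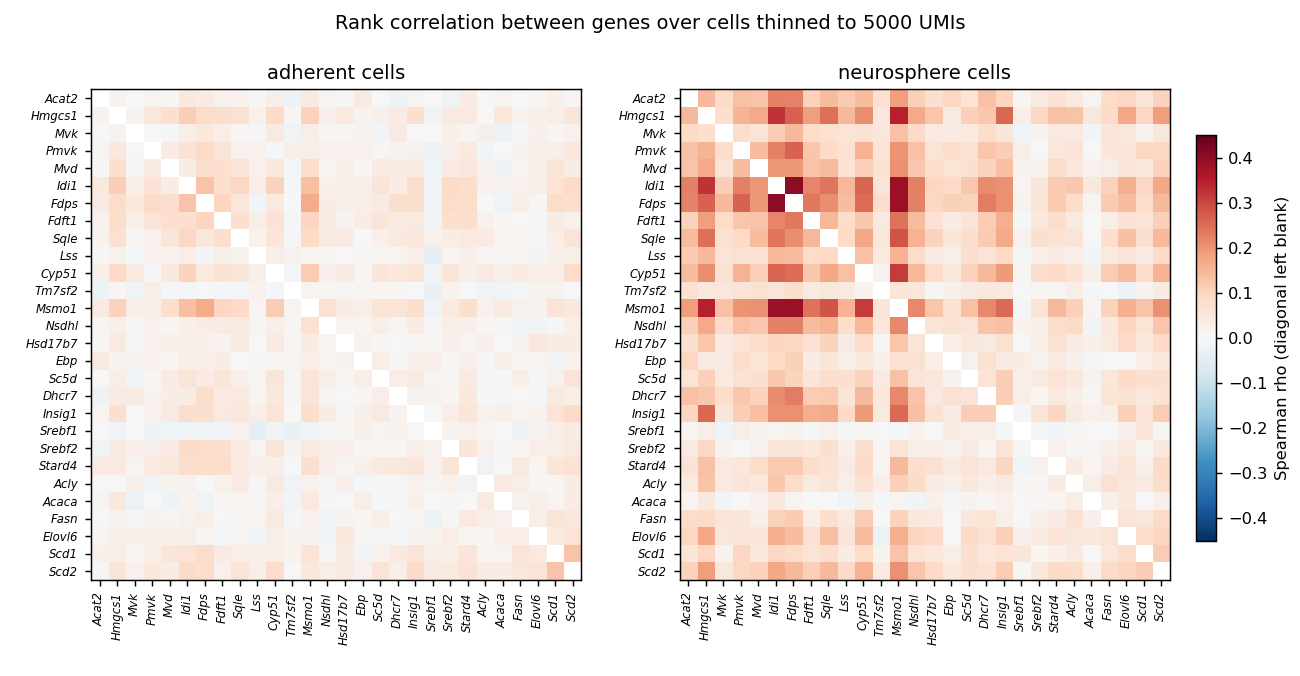
Spearman rho (colour scale) between each pair of the 28 genes over thinned adherent cells (left, n = 4464) and neurosphere cells (right, n = 4196). The darkest block joins Idi1, Fdps, Msmo1 and Hmgcs1 in neurosphere cells, up to 0.40, and all adherent values are at or below 0.17.

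Each library was clustered on its variable genes without the genes described here, which gave 10 clusters per culture. Clusters are given by number and are not named as cell types. The summed sterol level ran from 916 CPM (cluster 6) to 1458 CPM (cluster 4) over the adherent clusters and from 2945 CPM (cluster 6) to 4568 CPM (cluster 3) over the neurosphere clusters, with no overlap. The highest cluster was 1.59-fold above the lowest in adherent and 1.55-fold in neurosphere cells, less than the difference between the cultures. For 18 of the 28 genes every neurosphere cluster was above every adherent cluster, as was the case for 8.6% of the 14654 genes, and for Scd1 every neurosphere cluster was below every adherent one, as for 2.89%.

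For the other 9 genes the clusters overlapped, namely Mvk, Ebp, Sc5d, Srebf1, Srebf2, Acaca, Fasn, Elovl6 and Scd2. Adherent cluster 9 had 48 cells, a median of 2623.5 UMIs and a median mitochondrial share of 12.3%, against 2.02% over all kept adherent cells, and its leading gene was Lars2. It had the highest Acaca (364 CPM), Elovl6 (189 CPM) and Scd2 (553 CPM) of the adherent clusters. It was also highest in Acat2, Hmgcs1, Sqle, Cyp51, Msmo1, Nsdhl, Sc5d, Insig1, Srebf1, Srebf2 and Acly. It was lowest in Mvk, Pmvk, Mvd, Fdps, Lss, Tm7sf2, Hsd17b7, Ebp and Fasn. The values of this cluster rest on few UMIs, as its cells were few and shallow. With it left out, a choice made after the data were seen, 22 of the 28 genes had every neurosphere cluster above every adherent one, and of all genes 2512 were above and 995 below. With all clusters, 1260 genes were above and 423 below.

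Neurosphere clusters 1 and 6 had the lowest sterol levels, 3235 and 2945 CPM, and also median depths of 7607 and 8994 UMIs and mitochondrial shares of 4.88% and 5.02%. Cluster 3, led by Cdc20, Plk1 and Ube2c, had the highest sterol level with a median of 18810 UMIs. Cluster 9, however, had 4088 CPM at a median of 8551 UMIs and a mitochondrial share of 4.58%, and the deepest cluster, 4, had 3816 CPM at 21134.5 UMIs. The part of depth in these differences was not tested. Over neurosphere cells the sterol share had a rho of 0.13 with the UMIs of the cell and of -0.15 with the mitochondrial share. Scd1 ran from 112 to 206 CPM over the adherent clusters and from 35.6 to 76.9 CPM over the neurosphere clusters.

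**Figure D5:**
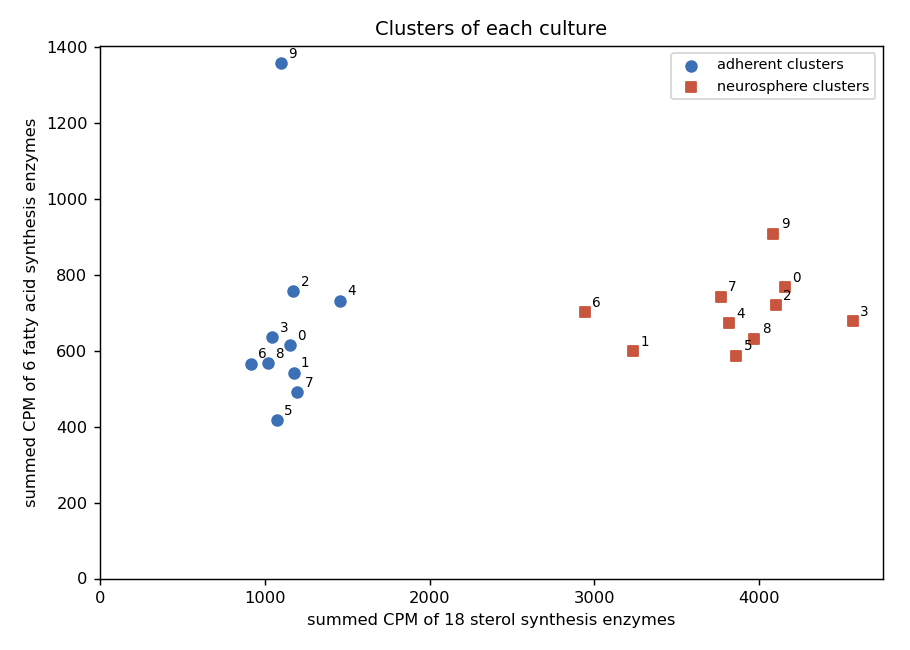
Summed CPM of the 18 sterol enzymes (x axis) and of the 6 fatty acid enzymes (y axis) in each of the 10 adherent clusters (blue circles) and 10 neurosphere clusters (red squares), with cluster numbers. The cultures separate along the x axis, with adherent clusters at 916 to 1458 CPM and neurosphere clusters at 2945 to 4568 CPM. Along the y axis the ranges overlap, with adherent clusters at 417 to 1356 CPM and neurosphere clusters at 586 to 908 CPM. The adherent value of 1356 CPM is that of cluster 9, with 48 cells, and the next highest adherent cluster is at 756 CPM.

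Markers of other cell types and states were set beside these levels. The 9 oligodendrocyte lineage markers summed to 795 and 3077 CPM, and 6 of 9 were over 2-fold higher, among them Cnp (20.1 and 520 CPM) and Mog (0.324 and 11.7 CPM), while Mbp was lower (255 and 124 CPM). Since this list moved with the sterol genes, the sterol level was taken in 3 groups of equal size from each library, ordered by UMIs of the list per thinned cell. It was 38.1, 37.2 and 40.4 UMIs per 10000 from the lowest to the highest group in neurosphere cells, and 11.9, 11.6 and 11.1 in adherent cells. Neurosphere cluster 9, led by Mbp and with 7797 CPM of the oligodendrocyte list, had 4088 CPM of sterol enzymes, against a median of 3918 CPM over the 10 neurosphere clusters. It was the highest of them for Hmgcs1, Mvd, Tm7sf2, Nsdhl, Hsd17b7, Srebf1, Acly and Scd2, and the lowest for Ebp. Its fatty acid enzymes, at 908 CPM against a median of 689 CPM, were also the highest. The part of the oligodendrocyte list in the sterol difference was not tested.

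The 12 G1/S genes summed to 703 and 1033 CPM, and the 12 G2/M genes to 2977 and 2493 CPM. From the lowest to the highest group of cells by G2/M UMIs, the sterol level was 35.9, 38.8 and 41.0 UMIs per 10000 in neurosphere cells and 12.0, 11.3 and 11.4 in adherent cells. By G1/S UMIs it was 36.9, 40.0 and 38.8 in neurosphere cells and 11.8, 11.4 and 11.5 in adherent cells, with no steady order. The 7 dissociation stress genes summed to 530 and 825 CPM, and the 4 integrated stress genes counted to 1030 and 570 CPM. Their part in the result was not tested.

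The labelled cell type, astrocytoma, was checked against 6 astrocyte markers. They summed to 535 and 341 CPM, mostly on Slc1a3 (370 and 80.5 CPM) and S100b (161 and 255 CPM). Gfap was at 0.648 and 0.416 CPM. Aqp4 had 0 UMIs in both libraries, with exact upper limits of 0.0797 and 0.0568 CPM. The 4 neuron markers summed to 26.3 and 50.0 CPM, the 8 immune markers to 13.7 and 5.50 CPM, and the 4 adipocyte markers to 4.84 and 1.17 CPM, with Adipoq at 0 and 2 UMIs.

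Genes around the pathway were taken from further lists. Among genes of sterol sensing and its partners, Nfyc, a subunit of NF-Y, was at 30.2 and 82.7 CPM, a log2 ratio of 1.46. The other subunits stayed within 2-fold, with log2 ratios of 0.26 for Nfya and -0.06 for Nfyb. Scap, the escort of SREBP, was at 9.94 and 14.3 CPM, and Insig2 at 30.6 and 47.5 CPM, with a log2 ratio of 0.63 beside the 3.10 of Insig1.

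Of 10 measured genes of sterol export, esterification and oxysterols, 3 were over 2-fold higher and 2 lower, with a median log2 ratio of 0.39, near the 21.7%, 11.7% and 0.32 of all genes. Scarb1, a lipoprotein receptor (17.9 and 44.4 CPM), and Npc1 (20.2 and 46.7 CPM) and Npc2 (279 and 574 CPM), which move cholesterol out of lysosomes, were higher. Nr1h3, the oxysterol receptor LXR alpha, was lower (4.43 and 1.59 CPM, log2 ratio -1.48), as was Cyp27a1, an oxysterol-forming enzyme (9.40 and 4.60 CPM, -1.03). Of 18 other genes of fatty acid synthesis, 2 were over 2-fold higher and 0 lower, with a median log2 ratio of 0.06, all below the values of all genes. They were Acss2, which makes acetyl-CoA from acetate (11.4 and 32.8 CPM), and Acsl3, an acyl-CoA synthetase (75.2 and 167 CPM). Scd3 was at 1.40 and 0.893 CPM.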

How the data were processed

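The authors deposited raw UMI counts per gene and cell for 1 adherent and 1 neurosphere library, made with Cell Ranger 7.0.1 on mm10 as the submitters' processing notes name them. The setting for reads in introns is not given in the sources used here. The 13 mitochondrial genes and the 101 genes whose symbols begin with Rps or Rpl were removed first. Cells under 1000 UMIs, and under 1250 (adherent) or 2250 genes (neurosphere), were then left out, after the study's limits, and 32171 genes stayed. In both libraries, slightly fewer cells were kept than the paper reports. No doublets were removed.

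UMIs were summed over cells and scaled to CPM. Log2 ratios have exact conditional intervals, CPM exact Poisson intervals and shares of cells exact binomial intervals, at 95%. The log2 interval was tested on simulated counts. A difference of over 2-fold is a call by size, taken over genes that reach 50 UMIs in both libraries together. Cells were thinned to 5000 UMIs, with 3000 UMIs as an alternative. Clusters came from Seurat 5.3.0 in R 4.3.3 (17 or 18 PCs, resolution 1, 2000 variable genes less the genes described), and TMM factors from edgeR 4.0.16. Python 3.11.15 with scipy 1.17.1 did the rest.

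All 28 genes are named. Of related lists, up to 6 genes with the largest absolute log2 ratio could be named. Nfya, Nfyb, cluster leading genes, overlapping genes and markers at 0 were named after their values were seen. The genes and lists were chosen with earlier results of these data known. Alternatives changed the cell filter, its order, the scaling, the weight and depth of cells, the pseudocount and the gene minimum. Some values of the sterol sensing list are not reported here.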

Additional observations from a re-analysis of the deposited data

How the results depend on the processing

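All results rest on 1 library per culture, so leaving out a replicate was not possible. No paired analysis was possible because each culture has 1 library and no test was made. Over 308 log2 ratios of single genes under 11 alternatives each, 306 kept their sign, and the 2 that did not were those of Scd2. The summed log2 ratio of the 28 genes, 1.45 as reported, was 1.47 with the neurosphere limit on genes per cell in both libraries, 1.42 without cells over the 95th percentile of UMIs, 1.23 under TMM scaling, 1.67 with a total that includes mitochondrial and ribosomal genes, 1.37 with every cell weighted equally and 1.40 in cells thinned to 5000 UMIs. The median log2 ratio, 1.71 as reported, was 1.49 under TMM scaling, 1.93 with that larger total and 1.54 with every cell weighted equally. The ratio of the per-cell medians of the 28 genes was 2.67 at 5000 UMIs, 2.8 at 3000 UMIs and 2.72 without thinning. Scaling to a total gives shares of the counted transcripts, so transcripts per cell were not measured.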

Other observations

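Further lists around the pathway were also counted. Of 10 measured genes of a mixed list, with genes that lead to ubiquinone, dolichol and prenylated proteins beside genes of alternative sterol steps, 3 were over 2-fold higher in neurosphere cells, 0 were lower and the median log2 ratio was 0.55, where all genes had 21.7% higher, 11.7% lower and a median of 0.32. They were Pdss2, which helps to make the ubiquinone side chain (25.4 CPM in the adherent and 62.2 CPM in the neurosphere library), Fnta, the shared subunit of protein prenyltransferases (51.8 and 122 CPM), and Lbr, a nuclear envelope protein that also has sterol reductase activity (30.7 and 70.9 CPM). Rabggtb, which prenylates Rab proteins, was at 236 and 175 CPM.

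Of 14 genes of fatty acid oxidation, 2 were over 2-fold higher, 2 were lower and the median log2 ratio was -0.13, with shares near or below the 21.7% and 11.7% of all genes. Cpt1a, which brings long-chain fatty acids into mitochondria, was at 9.70 and 4.30 CPM (log2 ratio -1.17), while its relative Cpt1c was at 1.94 and 4.0 CPM (1.04). Hadhb, a subunit of the mitochondrial trifunctional protein, was at 44.8 and 123 CPM (1.46), and Etfb, an electron transfer subunit, at 236 and 102 CPM (-1.21). These lists were chosen with earlier results of these data known, and no test of them was made.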
